A study of Oryctolagus cuniculus with 24 samples.

Results

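Nuclear genes for oxidative phosphorylation were described in rabbit peripheral blood mononuclear cells (PBMCs), the lymphocytes and monocytes that a density gradient separates from blood. They were chosen by gene symbol alone, as the non-control probes whose symbol began with NDUF, UQCR, COX4 to COX8 or ATP5, or was SDHA, SDHB, SDHC, SDHD or CYC1. The rule found 44 genes, measured by 163 probes, among 28920 genes and 42089 probes. By complex they comprised 4 core subunits, 19 accessory subunits and 5 assembly factors of complex I, 4 subunits of complex III, 5 of complex IV and 7 of ATP synthase. SDHA to SDHD and CYC1 were not among the matched symbols, and complex II is not analysed here. The 13 subunits encoded by mitochondrial DNA were looked for by name and none was matched.

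The respiratory chain passes electrons from NADH and succinate through complexes I to IV to oxygen and pumps protons across the inner mitochondrial membrane, and ATP synthase uses the proton gradient to make ATP. Most subunits are encoded in the nucleus, made in the cytosol and imported, and assembly factors build complex I from intermediate modules without staying in the finished enzyme. Lymphocytes are known to enlarge and to increase their mitochondrial content when they leave quiescence.

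PBMCs of 4 rabbits (adult New Zealand White females, called 1, 2, 4 and 5) were kept without stimulus (mock), with 1 µg/mL LPS, or with 10 ng/mL PMA and 1 µg/mL ionomycin (PMA-Ionomycin), and harvested after 4 h (T4) or 24 h (T24). LPS is a bacterial ligand of Toll-like receptor signalling, PMA activates protein kinase C, and ionomycin lets calcium into the cell. Each of the 6 groups held 1 culture of each rabbit (n = 4), and each culture was hybridised to its own 1-colour Agilent array of 60-base probes, giving 24 arrays on 3 slides, each slide with all 6 groups. A level below is the log2 median spot signal minus the array median, averaged over the spots and probes of a gene, and a difference is log2 stimulated minus log2 mock, so that 1 is a doubling.

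Between 51.4% and 62.3% of the spots of an array were well above background (lowest with LPS at T4 in rabbit 4, at 51.4% against 55.8% to 59.8% in the rest of its group, and after 4 h of PMA-Ionomycin in rabbit 2, at 52.6% against at least 58.98%), 280 to 370 spots per array were set aside as outliers, and 1 spot in the series was saturated. Of the 44 genes, 42 were well above background on every array, and the other 2 were NDUFA4L2, above background on no array, and NDUFS5. Markers of the cells PBMCs should hold were detected: 6 of 12 monocyte markers, 5 of 8 B cell markers and 7 of 10 T cell markers were matched, and 6 of the 7 T cell markers were well above background on all mock arrays at T4. In such bulk cultures, fewer cells of a type and less RNA per cell cannot be told apart.

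PMA-Ionomycin for 24 h gave the broadest response of these genes. Of the 44, 28 rose (limma, Benjamini-Hochberg adjusted p below 0.05 over all genes) and 0 fell, where 33.6% of all genes tested were called, 22.1% higher and 11.5% lower. The median difference of the 44 genes was 0.73, against 0.03 for all genes, and it was 0.83, 0.66, 0.53 and 0.86 in rabbits 1, 2, 4 and 5. In 30 genes the 4 stimulated and the 4 mock cultures did not overlap, where the same held for 32.2% of all genes. The median level of the 44 genes lay between 6.50 and 6.87 on the PMA-Ionomycin arrays at T24, and between 5.30 and 5.82 on the mock arrays of that time. Within the 3 slides the median difference was 0.88, 0.77 and 0.56. No slide held the stimulated and the mock array of the same rabbit at T24, so these values do not separate rabbit from treatment.

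**Figure D1:**
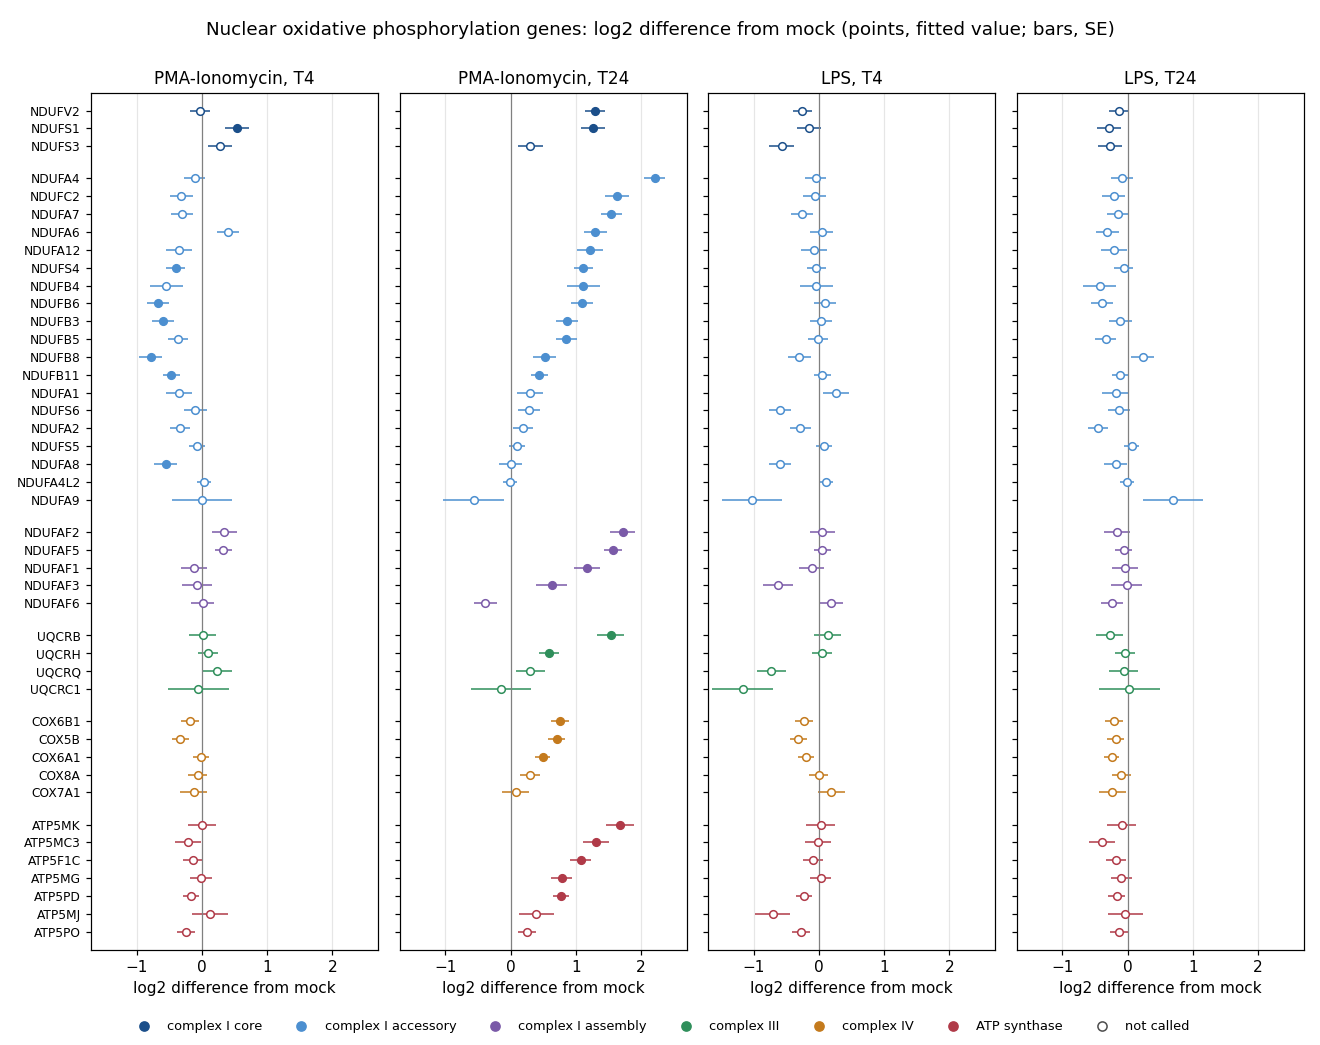
Log2 difference from mock of the genes, grouped by complex (1 of the 44 is not shown), after LPS and after PMA-Ionomycin at T4 and T24; points are fitted values with SE bars, and called genes are marked as the legend gives. After 24 h of PMA-Ionomycin 28 genes are called higher and 0 lower, while LPS gives no call at either time.

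NDUFA4, a small subunit first assigned to complex I and now placed with cytochrome c oxidase, gave the largest difference of the 44 genes. Its level was 6.42, 6.60, 6.69 and 6.42 in the mock cultures of rabbits 1, 2, 4 and 5 at T24, and 8.83, 8.96, 8.64 and 8.55 after PMA-Ionomycin. Every stimulated culture lay far above every mock culture, and the rabbits differed little within either group. The difference was 2.21 (SE 0.16, 4.63-fold, adjusted p = 1.87e-10). All 5 NDUFA4 probes were called higher, with differences from 2.18 to 2.26. The first of them is shown because its gene gave the largest difference, its own being 2.18; on build oryCun2 it lies at chr10:28058650-28062760, a span longer than the probe, so that it crosses an exon junction.
NDUFA4: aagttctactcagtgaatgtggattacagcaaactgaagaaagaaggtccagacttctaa

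Among the other accessory subunits of complex I, which surround the catalytic core, 12 of 19 (NDUFA4 counted among them by its symbol) rose at T24 after PMA-Ionomycin, with a median difference of 0.86 over the 19. NDUFC2, a membrane arm subunit, was at 5.39, 5.58, 5.46 and 4.80 in mock cultures and at 7.02, 6.97, 6.96 and 6.81 in stimulated ones. The groups did not overlap, and mock rabbit 5 was the lowest of all. NDUFC2 rose by 1.63 (SE 0.18, 3.1-fold, adjusted p = 1.06e-07). NDUFA7, a subunit of the matrix arm, was at 5.76, 5.58, 5.75 and 5.34 in mock cultures and at 7.43, 7.21, 7.0 and 6.97 in stimulated ones. Each stimulated value was above each mock value, and the difference was 1.54 (SE 0.16, 2.92-fold, adjusted p = 5.89e-08). The smallest called rises of this group were those of NDUFB8 (0.52, SE 0.18, adjusted p = 0.0252) and NDUFB11 (0.44, SE 0.13, adjusted p = 0.011), both membrane arm subunits. Both calls were lost under each other scaling and without rabbit 1 or 5, and that of NDUFB8 also without rabbit 4. Of the 3 NDUFB8 probes, with differences from 0.40 to 0.74, 1 was called higher.

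The assembly factors of complex I rose in 4 of 5 cases, with a median difference of 1.17. NDUFAF2, a chaperone of a late assembly step, was at 1.47, 1.65, 1.64 and 1.37 in mock cultures at T24 and at 3.31, 3.75, 3.0 and 2.96 after PMA-Ionomycin. The 2 groups stood well apart, and the difference was 1.72 (SE 0.19, 3.30-fold, adjusted p = 1.48e-07). NDUFAF5, which hydroxylates an arginine of a core subunit during assembly, was at 2.12, 2.21, 2.20 and 2.08 in mock cultures and at 3.72, 3.66, 3.60 and 3.91 in stimulated ones. Both groups were tight and did not overlap, and the difference was 1.57 (SE 0.13, 2.97-fold, adjusted p = 1.81e-09). NDUFAF1 rose by 1.17 (SE 0.20) and NDUFAF3 by 0.63 (SE 0.23, adjusted p = 0.0415), the latter with overlapping groups. The call of NDUFAF3 was lost under each other scaling, with the slide as a block, and without rabbit 1, 2 or 4. NDUFAF6 was at a difference of -0.39 (SE 0.18, adjusted p = 0.102) and was lower in 4 of 4 rabbits. It was called lower under each other scaling, and was also called with the slide as a block and with only the compared arrays.

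Of the 4 core subunits of complex I, which carry its iron-sulphur clusters and ubiquinone site, NDUFV2 and NDUFS1 rose at T24 after PMA-Ionomycin. NDUFV2 rose by 1.29 (SE 0.15, adjusted p = 2.49e-07). NDUFS1 was at 4.78, 4.79, 5.06 and 4.23 in mock cultures and at 6.25, 6.07, 5.88 and 5.71 in stimulated ones. All stimulated cultures were above all mock cultures, and the difference was 1.26 (SE 0.18, 2.40-fold, adjusted p = 6.29e-06).

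Complex III, which passes electrons from ubiquinol to cytochrome c, had 2 of 4 subunits called higher. UQCRB, a small subunit near the ubiquinone site, was at 6.83, 7.01, 6.81 and 5.92 in mock cultures at T24 and at 8.23, 8.61, 7.96 and 7.90 after PMA-Ionomycin. The groups did not overlap, and mock rabbit 5 was again the lowest. UQCRB rose by 1.53 (SE 0.21, 2.90-fold, adjusted p = 2.08e-06) and UQCRH, the hinge protein, by 0.59 (SE 0.15, adjusted p = 0.00373), though UQCRH was not called under quantile normalisation, normexp or the processed signal. UQCRC1, a core protein of the matrix side, was at 3.60, 3.46, 4.40 and 4.41 in mock cultures and at 3.32, 2.93, 4.71 and 4.32 in stimulated ones. Rabbits 4 and 5 were above rabbits 1 and 2 in both groups, and the difference was -0.15 (SE 0.46, adjusted p = 0.898).

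Complex IV, cytochrome c oxidase, had 3 of 5 subunits called higher, all of them the forms found in most tissues. COX6B1, which helps to hold the dimer together, was at 9.28, 9.44, 9.42 and 8.85 in mock cultures at T24 and at 10.20, 9.99, 9.96 and 9.85 after PMA-Ionomycin, with no overlap. COX6B1 rose by 0.75 (SE 0.14, 1.68-fold, adjusted p = 0.000117). COX5B, the zinc-binding subunit, rose by 0.71 (SE 0.13, adjusted p = 0.000123), a call lost under quantile normalisation and normexp. COX6A1 rose by 0.49 (SE 0.12, adjusted p = 0.00226), but its difference was -0.044 under quantile normalisation and -0.069 with normexp background correction before it. The muscle isoform COX7A1 gave 0.08 (SE 0.21, adjusted p = 0.868). COX8A, whose 1 probe was made from a 3′ EST read, was higher in 4 of 4 rabbits but not called (0.29, SE 0.15, adjusted p = 0.155).

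ATP synthase had 5 of 7 genes called higher, with a median difference of 0.78. ATP5MK, a small membrane subunit also known as DAPIT, was at 5.12, 5.07, 5.02 and 4.11 in mock cultures at T24 and at 6.63, 6.62, 6.44 and 6.36 after PMA-Ionomycin. The groups did not overlap, and rabbit 5 was apart from the other mock cultures. ATP5MK rose by 1.68 (SE 0.22, 3.21-fold, adjusted p = 1.16e-06). ATP5MC3, a gene for the c subunit of the rotor ring, was at 8.71, 8.94, 8.93 and 8.0 in mock cultures and at 10.17, 10.05, 9.95 and 9.64 in stimulated ones. Again no stimulated culture overlapped a mock culture, and the difference was 1.31 (SE 0.20, 2.48-fold, adjusted p = 9.75e-06). ATP5F1C, the gamma subunit of the central stalk, rose by 1.07 (SE 0.16, adjusted p = 5.77e-06). ATP5PO, the stalk subunit that confers oligomycin sensitivity, gave 0.25 (adjusted p = 0.186).

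**Figure D2:**
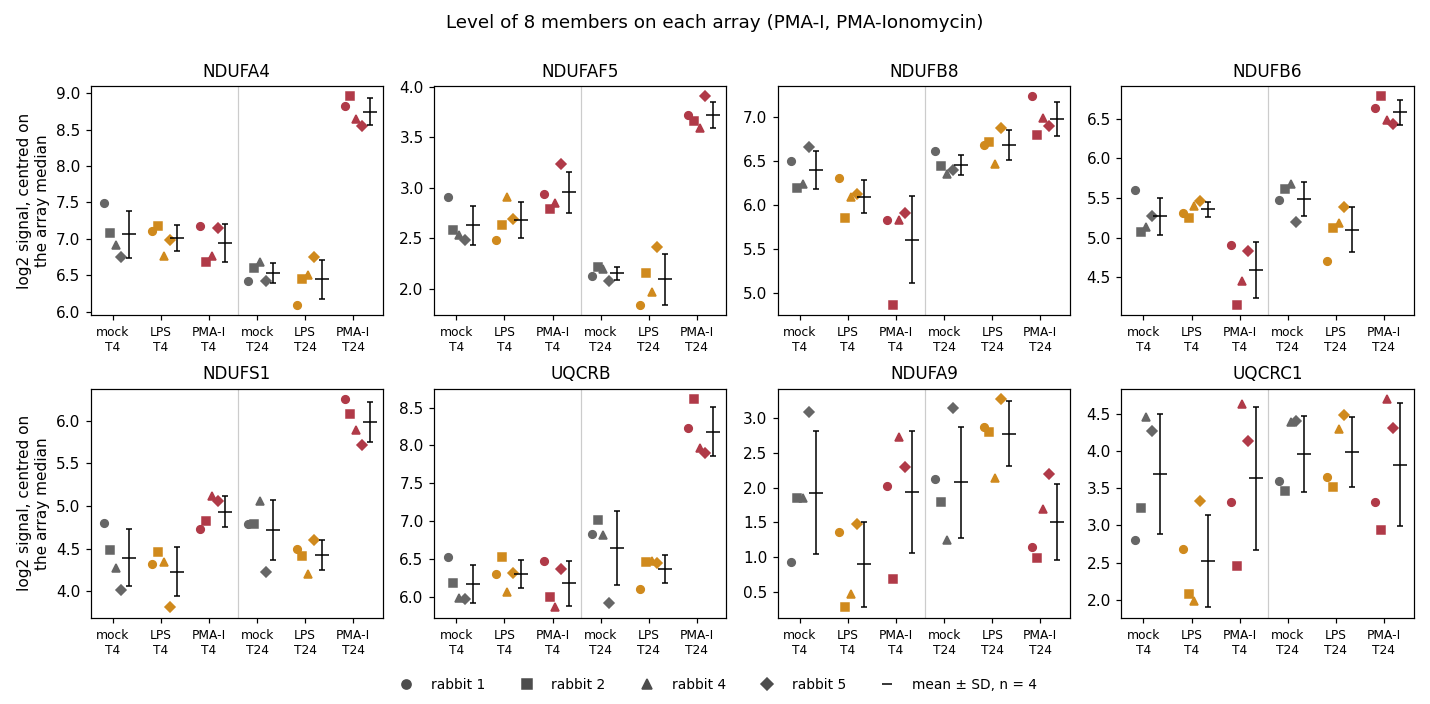
Level of 8 genes on each of the 24 arrays (log2 signal centred on the array median), by group, with a symbol for each rabbit and the mean ± SD of 4 cultures. NDUFA4, NDUFAF5 and UQCRB stand above all mock cultures after 24 h of PMA-Ionomycin, while the rabbits spread widely within the groups for NDUFA9 and UQCRC1.

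The size of the T24 rise depended on how the arrays were scaled. The median of the 44 genes was 0.73 with median centring, 0.58 in the table of log2 values the authors deposited, 0.43 with the processed signal, 0.24 with quantile normalisation and 0.22 with normexp correction and quantile normalisation, where the median of all genes was 0.03, -0.12, -0.26, -0.0041 and -0.0023. The split of calls was 28 higher and 0 lower with centring, 25 and 1 in the deposited table, 21 and 1 with the processed signal, and 19 and 3 under quantile normalisation. Of all genes, 18.5% were called higher and 17.7% lower in the deposited table, 16.2% and 18.8% with the processed signal, and 17.3% and 15.4% under quantile normalisation. All 19 called higher under quantile normalisation were among the 28. NDUFA2, NDUFA8 and NDUFAF6 were the 3 called lower there. The calls lost there were those of ATP5PD, COX5B, COX6A1, NDUFAF3, NDUFB11, NDUFB3, NDUFB4, NDUFB8 and UQCRH. NDUFB8 moved from 0.52 to -0.11 under quantile normalisation.

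A comparison with genes of like level was added after the data had been seen. Over the 3481 genes whose mean level lay between the lower and upper quartile of the 44 (3.39 to 6.48), the median difference at T24 was 0.51 with centring and -0.03 under quantile normalisation, with 49.6% called higher and 14.1% lower under centring. Over the 12268 genes well above background on all arrays it was 0.25, with 40% called higher. The 44 genes lay above both sets under every scaling in their median.

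**Figure D3:**
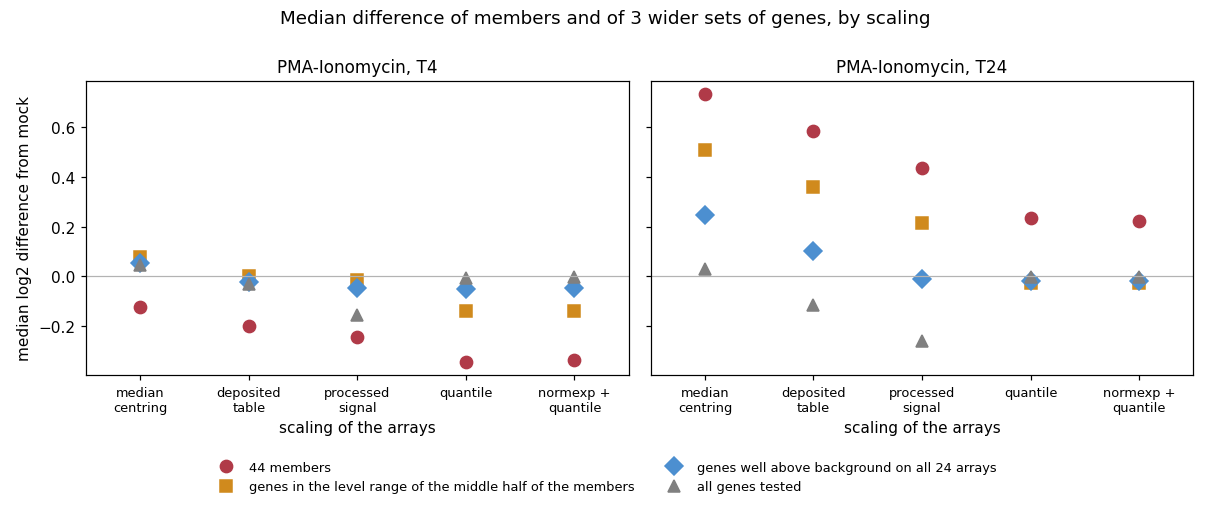
Median log2 difference of the 44 genes, of all genes, of the 12268 genes well above background on all arrays and of the 3481 genes in the level range of the members, for PMA-Ionomycin against mock at T4 and T24 under 5 scalings of the arrays. At T24 the 44 genes fall from 0.73 with median centring to 0.22 with normexp and quantile normalisation, and stay the highest of the 4 sets.

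After 4 h of PMA-Ionomycin the pattern was a different one. Of the 44 genes, 7 were called, 1 higher and 6 lower, where 22.8% of all genes tested were called, 13.5% higher and 9.35% lower. All 6 that fell were accessory subunits of complex I, whose 19 genes had a median difference of -0.36, while that of the 44 was -0.12 and that of all genes 0.05. The median of the 44 was -0.15, -0.48, -0.11 and 0.11 in rabbits 1, 2, 4 and 5, so that rabbit 5 went the other way. Among the genes of like level defined above, 26.7% were called higher and 17.4% lower, against 13.6% of members called lower. In 7 genes the groups did not overlap, where the share over all genes was 21.4%. None of the genes of complexes III and IV, ATP synthase or the assembly factors was called under this scaling.

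NDUFB8 fell the most. Its level was 6.49, 6.19, 6.24 and 6.66 in the mock cultures of rabbits 1, 2, 4 and 5 at T4, and 5.83, 4.87, 5.83 and 5.91 after PMA-Ionomycin. The groups did not overlap, and stimulated rabbit 2, the array of its group with the fewest spots above background, was far below the other stimulated cultures. NDUFB8 fell by 0.79 (SE 0.18, 1.73-fold, adjusted p = 0.00172), and all 3 of its probes were called lower. The probe shown, which lies at chr18:48631582-48633725 on build oryCun2 and crosses an exon junction, fell by 0.90, the most of the 3.
NDUFB8: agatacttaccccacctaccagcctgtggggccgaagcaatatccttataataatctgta

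NDUFB6, a further membrane arm subunit, was at 5.60, 5.07, 5.14 and 5.27 in mock cultures at T4 and at 4.91, 4.15, 4.45 and 4.84 after PMA-Ionomycin. No stimulated culture reached the lowest mock culture, and NDUFB6 fell by 0.68 (SE 0.17, 1.61-fold, adjusted p = 0.00336). NDUFB3 fell by 0.60 (SE 0.17, adjusted p = 0.012) and NDUFB11 by 0.47 (SE 0.13, adjusted p = 0.0104), each in 4 of 4 rabbits and without overlap. NDUFA8, a subunit facing the intermembrane space, was at 2.86, 3.1, 3.09 and 3.50 in mock cultures and at 2.83, 1.90, 2.76 and 2.81 in stimulated ones. Mock rabbit 1 was almost level with the stimulated cultures and stimulated rabbit 2 lay far below the others, and NDUFA8 fell by 0.56 (SE 0.18, adjusted p = 0.0218), a call lost in a fit of only the compared arrays and without rabbit 2, 4 or 5. NDUFS4, of the matrix arm, fell by 0.40 (SE 0.15, adjusted p = 0.0475) with overlapping groups, a call lost with the slide block, array weights, a trended robust prior or only the compared arrays, and without rabbit 1, 2 or 4. NDUFS1 was the gene that rose (0.54, SE 0.18, adjusted p = 0.0355), from 4.80, 4.49, 4.27 and 4.01 in mock cultures to 4.73, 4.82, 5.12 and 5.06. Its groups overlapped through rabbit 1, which was not higher after stimulation. The call was lost under quantile normalisation, with normexp, with the processed signal, in a fit of only the compared arrays, and without rabbit 2, 4 or 5.

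The count at T4 rested on single rabbits and on the scaling. Without rabbit 2, and likewise without rabbit 4, 2 genes were called, both lower. Those fits held fewer arrays, and their share over all genes is not given here. Under quantile normalisation 21 were lower and 0 higher, where 12.8% of all genes and 28.4% of the genes of like level were called lower, against 47.7% of the members. The 21 took in COX5B, COX6A1 and COX6B1 of complex IV and ATP5F1C, ATP5MC3, ATP5PD and ATP5PO of ATP synthase, as they did with normexp, so the calls then were not those of complex I alone, and COX5B was also called in the deposited table and with the processed signal. The median difference of the 44 genes was -0.34 under quantile normalisation and -0.23 to -0.02 without 1 rabbit, and within the 3 slides it was -0.32, -0.03 and 0.07. At T4 too, no slide held the stimulated and the mock array of the same rabbit.

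The change of the PMA-Ionomycin effect between T4 and T24 was tested as an interaction. It was called in 26 of the 44 genes, positive in each, where 22.5% of all genes tested were called, 14.4% positive, and the median interaction was 0.91 against -0.02 for all genes. Over the genes of like level the median was 0.39, with 34.6% called positive and 9.45% negative. Of the 28 genes that rose at T24, 22 had not been called at T4, and 20 of these had a called interaction, the other 2 being NDUFAF3 and UQCRH. With the rabbit as a block the NDUFAF3 interaction was called (0.71, adjusted p = 0.0326). That of UQCRH was called with only the compared arrays, and in the omission of probes described below (0.87, adjusted p = 0.00113). NDUFB11, NDUFB3, NDUFB6, NDUFB8 and NDUFS4 were called lower at T4 and higher at T24, each with a called interaction. Of these, NDUFB6 kept both calls under every alternative at the gene level but the test of a 1.5-fold change. NDUFB3 was not called at T24 under quantile normalisation, normexp or the processed signal, NDUFB8 and NDUFB11 lost that call as given above, and NDUFB11 and NDUFB3 were not called at T4 without rabbit 2 or without rabbit 4, nor NDUFB3 without rabbit 1. NDUFS1 was called higher at both times, NDUFA8 lower at T4 alone, and 15 genes at neither time. The largest interactions were 2.33 (SE 0.23, adjusted p = 6.85e-08) for NDUFA4, 1.95 (SE 0.25, adjusted p = 3.76e-06) for NDUFC2 and 1.86 (SE 0.23, adjusted p = 2.09e-06) for NDUFA7. NDUFB6 followed at 1.78 (SE 0.24), ATP5MK at 1.68 (SE 0.31) and NDUFB4, a membrane arm subunit, at 1.67 (SE 0.36).

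**Figure D4:**
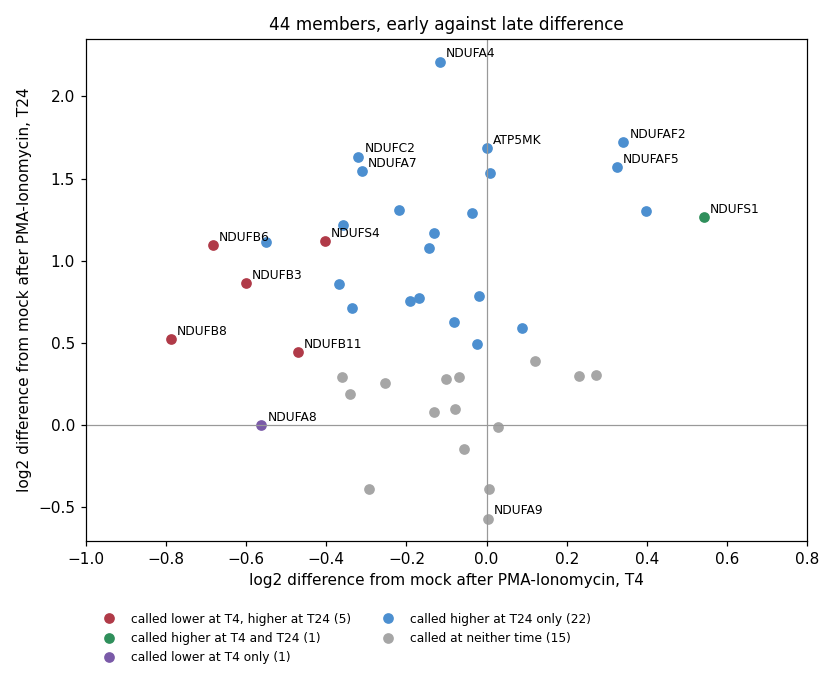
Log2 difference from mock after PMA-Ionomycin at T24 (vertical) against T4 (horizontal) for the 44 genes, coloured by their calls at the 2 times. The 5 genes called lower at T4 and higher at T24, of which NDUFB6 kept both calls under the other scalings and without any 1 rabbit, lie in the upper left part of the plot, and 22 genes are called higher at T24 alone.

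The mock cultures themselves changed with time, and both comparisons above are relative to them. Between T4 and T24 the mock level of 6 genes rose and that of 2 fell, where 12.6% of all genes were called, 7.42% higher and 5.13% lower, and the median difference was 0.27 against -0.06 for all genes (0.13 against -0.12 with the processed signal). The 13.6% of members called higher matched the share among the genes of like level, 13.5%, of which 8.47% were lower. In 12 genes the groups did not overlap, where the share over all genes was 14.2%. NDUFS3, a core subunit of complex I, was at 5.38, 5.61, 5.54 and 6.11 at T4 and at 6.56, 6.57, 6.61 and 6.69 at T24. The T24 cultures were nearly level with each other and all above the T4 cultures, and NDUFS3 rose by 0.95 (SE 0.19, adjusted p = 0.000965). NDUFB3 rose by 0.88 (SE 0.17, adjusted p = 0.000862), NDUFA2, of the matrix arm, by 0.88 (SE 0.16, adjusted p = 0.000315) and NDUFA8 by 0.75 (SE 0.18, adjusted p = 0.00467). NDUFA6 and COX6B1 rose by 0.57 (SE 0.17, adjusted p = 0.0302) and 0.42 (SE 0.14, adjusted p = 0.0478). With the rabbit as a block ATP5MJ, NDUFS6 and UQCRQ were also called higher.

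NDUFA4 and NDUFAF5 were the genes that fell in mock culture, by 0.53 (SE 0.16, adjusted p = 0.0328) and 0.48 (SE 0.13, adjusted p = 0.0181). The NDUFA4 level was 7.50, 7.08, 6.91 and 6.76 in mock cultures at T4, and 7.18, 6.68, 6.77 and 7.15 after 4 h of PMA-Ionomycin. Its level at T24 after PMA-Ionomycin, given above, was therefore higher than in any group at T4 as well as higher than mock at T24. The NDUFAF5 level was 2.91, 2.58, 2.53 and 2.49 in mock cultures at T4, also below each of the PMA-Ionomycin cultures at T24. Both falls, and the rises of NDUFA6 and COX6B1, lost their call without rabbit 1, 2 or 4, that of NDUFA8 was lost without rabbit 1 or 4, and that of NDUFA4 was also lost with the slide block and with only the compared arrays. Leaving out 1 rabbit at a time gave 3 to 11 called genes in this comparison, 3 without rabbit 1, 4 without rabbit 2 and 3 without rabbit 4. Those fits held fewer arrays, and their counts are not comparable with the shares of the full fit. Cell markers moved in the same comparison: 5 of 6 monocyte markers rose and 0 fell (median 2.26, mean level 1.94 to 3.1 at T4 and 3.91 to 5.21 at T24), all 3 proliferation genes fell (median -2.47), and 2 of 3 platelet markers fell (median -1.79). Of 7 T cell markers 2 fell (median -0.42), and of 4 neutrophil markers 2 rose (median 0.61). Their part in the change of the 44 genes was not tested.

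LPS called none of the 44 genes at T4 or T24 by limma, where 1.02% and 1.22% of all genes tested were called. At an unadjusted p under 0.05 there were 10 genes at T4 and 3 at T24, and the median difference was -0.08 at T4 and -0.14 at T24, against 0.06 and -0.03 for all genes. Over the genes of like level it was -0.11 at T4 and -0.12 at T24. The T4 median of the 44 was 0.02 under quantile normalisation, 0.01 with normexp and 0.15 with the processed signal. With the processed signal the median of all genes was 0.22. Leaving out 1 rabbit moved the T4 median between -0.15 and 0.02 and the T24 median between -0.29 and -0.08. By rabbit the T24 median was mixed in sign, as rabbits 1, 2, 4 and 5 were at -0.32, -0.20, -0.31 and 0.28. The groups did not overlap in 8 genes at T4 and in 0 at T24, where the shares over all genes were 7.32% and 4.34%. The interaction of LPS and time was called in 0 genes, where 1.95% of all genes were called, and 4 genes were under an unadjusted p of 0.05. These comparisons share their mock cultures with those of PMA-Ionomycin.

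With the rabbit as a block, the LPS comparison at T4 called 7 of the 44 genes, all lower, where 4.25% of all genes were called, 3.96% lower. They were UQCRC1 (-1.17, adjusted p = 0.0232), UQCRQ (-0.73, adjusted p = 0.0247), ATP5MJ (-0.71, adjusted p = 0.0257), NDUFAF3 (-0.63, adjusted p = 0.0386), NDUFA8 (-0.60, adjusted p = 0.0354), NDUFS6 (-0.60, adjusted p = 0.0379) and NDUFS3 (-0.58, adjusted p = 0.0496). In the 2 genes given next the lowest culture was LPS rabbit 4, the array with the fewest spots above background. UQCRQ, a small subunit of complex III, was at 5.97, 5.99, 6.04 and 6.53 in mock cultures at T4 and at 5.89, 5.16, 4.81 and 5.75 with LPS. The groups did not overlap, yet rabbit 1 differed little, and without the block its adjusted p was 0.103. NDUFS6, a zinc-binding accessory subunit of complex I, was at 5.53, 5.60, 5.54 and 5.77 in mock cultures and at 5.28, 5.03, 4.56 and 5.18 with LPS, again without overlap and with an adjusted p of 0.0848 without the block. In the blocked interaction of LPS and time NDUFA9 was the gene called (1.73, adjusted p = 0.0416), and without the block its adjusted p was 0.173. Its T4 levels spread widely, from 0.92 to 3.09 in mock cultures and from 0.27 to 1.48 with LPS. In the LPS comparison at T4, without the block, 2 of 6 monocyte markers fell (median of the 6 -0.97), CD14 from a mean level of 7.38 to 5.83 and CSF1R from 1.16 to -0.28, and the mean level of the list ranged from 1.94 to 3.1 in mock and from 1.46 to 1.97 in LPS cultures. Their part in the 7 calls was not tested.

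Single probes gave a second view of the same genes. Of the 163 probes, 116 were called higher and 0 lower at T24 after PMA-Ionomycin, where 34.6% of all probes were called, and at T4 2 were called higher and 25 lower, where 23.8% were called. NDUFA9, an accessory subunit at the junction of both arms of complex I, had 6 probes of which 5 were made from one transcript model and 1 from another. The 5 probes gave differences from -0.86 to -0.62 at T24 after PMA-Ionomycin and the other 0.13, none of them called. One of the 5 and the other probe are shown because their differences had unlike signs, though neither was called. On build oryCun2 they lie at chr8:30770897-30770956 and chr8:30787928-30787987.
NDUFA9, first model: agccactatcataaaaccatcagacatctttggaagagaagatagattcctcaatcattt
NDUFA9, second model: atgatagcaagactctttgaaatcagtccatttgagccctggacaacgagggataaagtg

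Averaged over its probes, NDUFA9 was at 2.12, 1.79, 1.25 and 3.15 in mock cultures at T24 and at 1.14, 0.99, 1.70 and 2.20 after PMA-Ionomycin. Rabbit 5 was the highest of each group, the groups overlapped, and the difference was -0.57 (SE 0.46, adjusted p = 0.43).

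Not every probe of these genes ran in the direction of the transcript. In 11 genes, 18 probes were either made from expressed sequence tags (ESTs) read from the 3′ end of a clone, or ran on oryCun2 in the direction opposite to the other probes of the gene, and 8 of the genes also had probes of the other kind. The pairs of UQCRH and NDUFA2 are shown because in each the capitals mark a stretch that is the reverse complement of the capitals in its partner, 49 bases in UQCRH and 29 in NDUFA2. On oryCun2 the opposite and the other probe of UQCRH lie at chr13:120230471-120234368 and chr13:120230482-120234379, and those of NDUFA2 at chr3:22765110-22766386 and chr3:22765079-22765138.
UQCRH, opposite: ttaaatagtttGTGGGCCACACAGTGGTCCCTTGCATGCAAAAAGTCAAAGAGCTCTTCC
UQCRH, other: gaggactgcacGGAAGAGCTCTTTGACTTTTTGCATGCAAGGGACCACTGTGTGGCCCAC
NDUFA2, opposite: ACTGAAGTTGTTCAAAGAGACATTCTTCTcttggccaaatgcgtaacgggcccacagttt
NDUFA2, other: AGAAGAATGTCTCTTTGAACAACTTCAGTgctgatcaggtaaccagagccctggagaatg

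At T24 after PMA-Ionomycin the opposite UQCRH probe gave a difference of 0.27 (adjusted p = 0.477) and its partner 0.91 (adjusted p = 6.42e-06). For NDUFB11 the corresponding differences were 0.01 (adjusted p = 0.978) and 0.87 (adjusted p = 9.06e-06). The 4 such probes of NDUFA1, a membrane arm subunit, gave -0.28 to 0.13, and its 5 other probes 0.50 to 0.55, of which 4 were called. Such probes were much dimmer, with mean levels of 0.11 against 7.59 in UQCRH and 0.67 against 6.09 in NDUFB11. In NDUFA1 they were at 0.27 to 0.48 against 7.54 to 8.18. Of the 8 genes, NDUFB6 alone had such a probe called higher as well, at 0.54. In ATP5PO and NDUFA2 no probe of either kind was called. Their other probes gave 0.28 to 0.35 and 0.215 to 0.295. In the whole table, 31.4% of the 303 probes from 3′ EST reads were well above background on all arrays, against 74.3% of the 101 probes from 5′ reads and 43.9% of the remaining 41685.

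**Figure D5:**
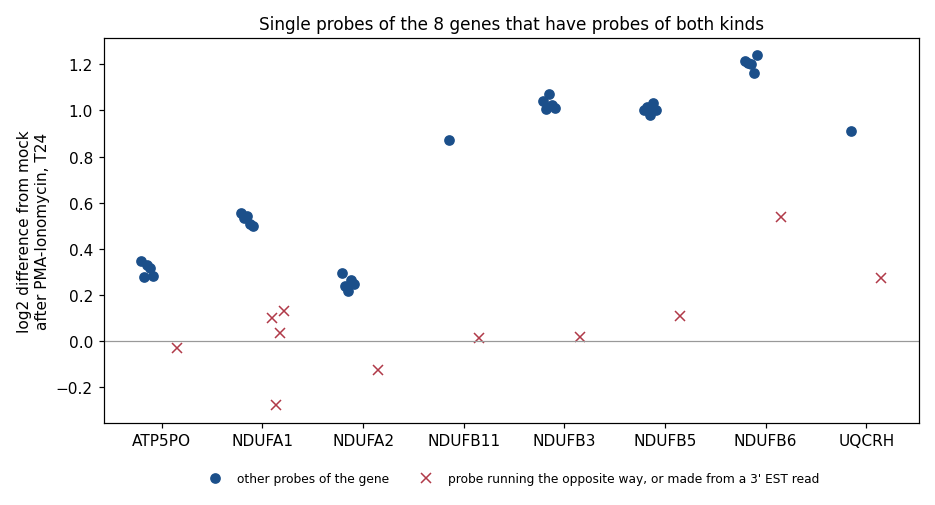
Log2 difference from mock after 24 h of PMA-Ionomycin for the single probes of the 8 genes with probes of both kinds; 1 kind runs opposite to the gene's other probes or was made from 3′ EST reads. Probes of the second kind reach 0.91 in UQCRH, where the opposite probe is at 0.27.

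Leaving out the 18 probes, and all 3′ EST probes of the table, was an alternative chosen after seeing the data. It left 41 of the 44 genes, without COX8A, NDUFA4L2 and NDUFS5, which had no other probes. At T24 after PMA-Ionomycin 29 were then called, all higher, where 33.7% of all genes were called. UQCRH moved from 0.59 to 0.91 and NDUFB11 from 0.44 to 0.87, and NDUFA1 from 0.29 (adjusted p = 0.33) to 0.53 (SE 0.20, adjusted p = 0.0407). At T4 NDUFB5, of the membrane arm, moved from -0.37 (adjusted p = 0.106) to -0.52 (SE 0.17, adjusted p = 0.0323), and 29 interactions were called in place of 26. The NDUFA1 probes lay on chromosome X and, for 2 of them, on chromosome 8, so its signal may come from more than 1 copy.

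The other genes of the pathway were taken from lists of symbols, and their counts stand beside the 22.1% of all genes, and 40% of the genes well above background, called higher at T24. Of 27 assembly factors of the complexes found among 41 looked for, 15 rose and 0 fell at T24 after PMA-Ionomycin, with a median of 0.56. They included COA6, a copper-delivery factor of complex IV, at 2.28 (SE 0.15), UQCC2, an assembly factor of complex III, at 1.82 (SE 0.16), and BCS1L, which inserts the Rieske protein into complex III, at 1.80 (SE 0.18). At T4 9 rose and 2 fell, when 13.5% of all genes were called higher and 9.35% lower, and 23.1% and 15.9% of the genes well above background. Among the mobile electron carriers and the enzymes that make ubiquinone, 4 of 14 rose at T24 and 0 fell, a share between those backgrounds, with PDSS2, of the ubiquinone tail synthase, at 1.81 (SE 0.17) after a fall of 0.92 (SE 0.17) at T4, when 4 rose and 2 fell. LPS gave 1 call over these lists, an assembly factor that was lower at T4.

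Of 13 genes of the tricarboxylic acid cycle and pyruvate dehydrogenase, 4 rose at T24 after PMA-Ionomycin, again a share between the backgrounds, 3 of them for pyruvate dehydrogenase: PDHB at 1.78 (SE 0.16), DLAT at 1.64 (SE 0.17) and PDHX at 0.89 (SE 0.15), beside MDH2 at 0.91 (SE 0.22). None fell, and at T4 1 rose. Of 4 genes for exchange across the mitochondrial membranes, the phosphate carrier SLC25A3 rose by 1.06 (SE 0.15) and the porin VDAC2 by 1.26 (SE 0.21), while the uncoupling protein homologue UCP2 fell by 0.80 (SE 0.29, adjusted p = 0.0349). Of 11 regulators of mitochondrial biogenesis, 5 were called higher and 2 lower at T24. TFAM, which packages and transcribes mitochondrial DNA, rose by 1.22 (SE 0.11) at T4 and by 1.68 (SE 0.11) at T24, and the coactivator PPRC1 by 2.37 (SE 0.16) and 1.83 (SE 0.16). Its relative PPARGC1B fell by 1.33 (SE 0.22) at T24. The other gene called lower was PPARGC1A, well above background on 0 mock and 1 stimulated array of that time, so no direction was read for it.

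Markers of cell types and of proliferation moved with the same comparison. After 24 h of PMA-Ionomycin 5 of the 6 monocyte markers fell and 0 rose, CYBB by 4.81 and CD14 by 3.27, and the mean level of the list ranged from 3.91 to 5.21 in mock and from 1.73 to 2.27 in stimulated cultures. None of the 6 was below background on all arrays of either group. Of the 5 B cell markers 3 fell and 1 rose, and of the 7 T cell markers 1 fell and 1 rose. Of 4 neutrophil markers 2 fell (median -0.90), of 3 platelet markers 1 rose, and PRF1, the NK cell marker found, rose by 0.96 after a fall of 0.76 at T4. All 3 proliferation genes found of 5 rose, CCNB1 by 4.29, MKI67 by 3.66 and PCNA by 3.20, with a mean level from 2.25 to 2.94 in mock and from 6.09 to 6.69 in stimulated cultures. At T4 2 of the 3 fell after PMA-Ionomycin, MKI67 by 1.25 and CCNB1 by 0.95. At that time 3 of 6 monocyte markers (median -1.13), 3 of 5 B cell markers (median -1.7, 1 higher) and 2 of 3 platelet markers (median -1.60) also fell. Their part in the change of the 44 genes was not tested.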

How the data were processed

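Total RNA of 24 PBMC cultures was labelled with Cy3 and hybridised by the authors to 1-colour Agilent arrays. The authors deposited the Feature Extraction 10.7.3.1 output of every array (version per the labels). The authors' deposited intensities are uncorrected spot values (median and mean signal, local background) and a processed intensity with background and spatial trend removed, beside flags of 0 or 1, none scaled between arrays. The authors' deposited log2 table was found to be the log2 median signal less the average of all spots on that array, with 0 unmapped columns. Array coordinates are on oryCun2.

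Here, outlier spots were dropped, log2 median signals of 61657 non-control spots were centred on each array's median, and spots were averaged per probe and probes per gene. Symbols came from RefSeq records (assembly mOryCun1.1, names only): 11029 probes were named by accession, 8500 by gene number and 94 by gene name, and 22466 kept their identifier. Group means of the 6 groups were fitted with limma 3.58.1 (lmFit, eBayes) in R 4.3.3 and adjusted by Benjamini-Hochberg over 28920 genes, at a threshold of 0.05. The scripts were tested on simulated data. Array number limits the precision, and p-values measure the spread between cultures of 4 rabbits.

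The same rabbits gave all groups. Over all genes with a value on every array, deviations from the group means correlated by 0.21 on average over 60 pairs of arrays of one rabbit (-0.41 to 0.63). Over 180 pairs of different rabbits the average was -0.07. This was not computed for the 44 genes alone. The members, lists and tests were chosen with earlier results of these data known. Members named by rule were, in each comparison, the 6 called members with the largest rise and the 6 with the largest fall among those with 1 direction in all 4 rabbits and a signal well above background throughout the brighter group, plus fixed isoform genes (21 in all); the others were chosen after their values were seen. Alternatives were another scaling or background correction, the deposited table, filters on dim and outlier spots, rabbit or slide as a block, array weights, other fits, single probes and each rabbit left out. Added after seeing the data were the omission of 3′ EST and opposite probes and the sets of genes of like level. The values of 1 member are not reported here, though it stays in the counts and medians of the 44. Promoter motifs are not analysed here.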

Additional observations from a re-analysis of the deposited data

Results flagged for a closer look

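In 9 of 132 groups of 4 cultures, over the 21 genes named by rule and the member median, the highest or lowest culture stood apart by Dixon's criterion (the gap to the nearest culture over the range of the group), which chance exceeds in about 1 of 20 groups. Rabbit 2 was the culture apart in 5 of them. After 4 h of PMA-Ionomycin it was low for NDUFA8 (ratio 0.929, level 1.90 against 2.76 to 2.83) and NDUFB8 (0.925, 4.87 against 5.83 to 5.91), which are genes called lower there. It was also apart for NDUFA4L2 (0.851), where no direction was read because the gene was above background on no array. Rabbit 2 was high for COX7A1 in mock at T4 (0.855) and for NDUFAF2 with LPS at T4 (0.879). Without rabbit 2 the PMA-Ionomycin difference at T4 was -0.35 (adjusted p = 0.175) for NDUFA8, which was then not called, nor was it without rabbit 4 or without rabbit 5.

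Rabbit 5 was apart in mock at T24 for NDUFB3 (0.957, 5.27 against 5.89 to 5.91) and ATP5MK (0.896, 4.11 against 5.02 to 5.12), and after 24 h of PMA-Ionomycin for COX8A (0.846, 2.15 against 2.0 to 2.02). Rabbit 1 was apart in mock at T4 for NDUFA6 (0.886, 6.92 against 6.52 to 6.56).

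The effect of PMA-Ionomycin differed between T4 and T24 by the interaction term in 26 genes. For the genes named by rule the interaction was 2.33 for NDUFA4, 1.95 for NDUFC2, 1.86 for NDUFA7, 1.78 for NDUFB6, 1.68 for ATP5MK, 1.67 for NDUFB4, 1.53 for ATP5MC3 and 1.46 for NDUFB3. It was 1.38 for NDUFAF2, 1.31 for NDUFB8, 1.24 for NDUFAF5, 0.94 for COX6B1, 0.91 for NDUFB11, 0.90 for NDUFA6 and 0.51 for COX6A1. All were positive in 4 of 4 rabbits. The call of the COX6A1 interaction was lost under quantile normalisation, normexp, the processed signal, only the compared arrays, the slide block, a trended robust prior and the 1.5-fold test, and without rabbit 1, 2 or 5, and that of NDUFA6 with the processed signal, by the 1.5-fold test and without rabbit 1 or 2. Those of NDUFB8, COX6B1 and NDUFB11 were lost by the 1.5-fold test alone.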

How the results depend on the processing

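The 28 calls of PMA-Ionomycin at T24 became 22 to 29 under other scalings, filters, blocks and prior settings, 16 when a change of at least 1.5-fold was tested, 116 of 163 as single probes and 25 to 27 without 1 rabbit; its median was 0.24 with quantile normalisation, 0.43 with the processed signal, 0.22 with normexp and 1.02 over single probes. The 7 calls at T4 became 21 with quantile normalisation and 21 with normexp, 4 with only the compared arrays, 0 by the fold test, 27 as single probes and 2 to 7 without 1 rabbit. The 26 interactions became 14 by the fold test, 121 as single probes (median 1.18) and 22 to 26 without 1 rabbit. The 8 mock changes with time became 15 with array weights, 0 by the fold test, 28 as single probes and 3 to 11 without 1 rabbit. The 0 calls of LPS became 3 at T4 and 1 at T24 with array weights, 1 at T24 with quantile normalisation and 1 with normexp, 2 interactions with array weights, and 0 to 2 at T24 (2 without rabbit 5), 0 at T4 and 0 for the interaction without 1 rabbit; the LPS median at T4 was 0.15 with the processed signal. COX6A1 and NDUFB8 at T24 turned to -0.044 and -0.11 with quantile normalisation and -0.069 and -0.11 with normexp. The causes were not tested. With the pairing used as a rabbit block, 7 LPS calls at T4 and 1 LPS interaction were gained, as given above, and no other count moved by over 1.5 times. Of 2625 further values of the named genes, 2498 kept direction and side of the threshold, 85 lost and 38 gained a call and 4 turned. Dim signal limits NDUFA4L2 and NDUFS5, and PPARGC1A among the other genes, where no direction was read.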
